A study of Mus musculus with 48 samples.

Results

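The cells described here are 28 of 48 single mouse fetal liver cells that carried transcripts of the erythroid transcription factor Gata1, divided by their level of Tgfbr3, the gene of the type III TGF-beta receptor. The cells were chosen by their own measured levels of 3 genes: a cell was kept when Gata1 reached 10 CPM and C1qb, a macrophage complement gene, stayed under 1000 CPM, and was then divided by Tgfbr3. CPM are the counts of a gene scaled to 1000000 counts of the cell. In 23 kept cells Tgfbr3 reached 10 CPM, and these are called Tgfbr3-high. The other 5 kept cells stayed under that limit and are called Tgfbr3-low. Of the 20 cells not kept, 18 were under the Gata1 limit and 2 were at or above the C1qb limit.

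All cells came from 1 labelled group, BFU-E at embryonic day 14.5, and no strain, genotype or treatment is given for them. Per the labels, beads removed fetal liver cells with CD34, CD41, CD3, CD16/CD32, Sca-1, Gr-1, Mac-1, B220 or Ter119, and the rest were selected for c-Kit and sorted for the 10% lowest CD71. A gate on the surface type III receptor is described for human cells only, so the division used here rests on transcripts. No animal, litter, chip or batch is named. The 28 cells therefore count as 1 sample, cells are not replicates, and no test, p-value or standard error is given.

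BFU-E are the earliest progenitors committed to the red cell lineage, and they give rise to CFU-E and then to erythroblasts. TGF-beta signals through a type I receptor, Tgfbr1, and a type II receptor, Tgfbr2, which phosphorylate Smad proteins. The type III receptor, also called betaglycan, is a co-receptor with a short cytoplasmic tail that lacks a kinase and presents ligand to the other two. TGF-beta is known to slow the growth of early blood progenitors and to favour erythroid maturation.

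The total count was 246007 to 3211186 in the Tgfbr3-high cells, with a median of 2085482, and 1839985 to 2843858 in the Tgfbr3-low cells, with a median of 2063274. A read was found for 5180 to 7886 genes per Tgfbr3-high cell and for 5968 to 7566 genes per Tgfbr3-low cell. After every cell was thinned to 246007 counts, the medians were 5094 and 5041 genes. Depth thus overlapped between the sets. Transcripts of sex were spread unevenly. Among Tgfbr3-high cells, 9 had Xist alone at 10 CPM, 11 had Y-linked genes alone, 1 had both and 2 had neither, while 4 Tgfbr3-low cells had Xist alone and 1 had Y-linked genes alone. The cell with both also had C1qb at 402 CPM, the next value under the limit being 6.06 CPM. The part of sex and of a possible second cell in that chamber was not tested.

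The division by Tgfbr3 fell in an empty stretch of its levels. Tgfbr3 lies on chromosome 5 at 107106570 to 107289629, minus strand, in GRCm38. It was at 0.352, 0.461, 0.969, 1.09 and 0 CPM in Tgfbr3-low cells 1 to 5, which are numbered by rising Gata1, from 1, 1, 2, 2 and 0 reads. The Tgfbr3-high cells ran from 10.5 CPM through a median of 187 CPM to 2686 CPM. Just above the limit lay 10.5 and 18.5 CPM, and just below it 1.09 and 0.969 CPM. Of the 23 cells, 10 were at 10 to 100 CPM and 13 at 100 CPM or more. An exon of Tgfbr3 overlaps Gm43422, and whether counting used strand is not stated, so reads of overlapping genes cannot be told apart.

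Gata1, on chromosome X at 7959260 to 7978071, minus strand, was read in every kept cell by the choice of cells. Tgfbr3-high cells had 18.6 to 1882 CPM with a median of 399 CPM. Tgfbr3-low cells had 52.0, 55.4, 400, 641 and 797 CPM, all inside that range. Nearest the Gata1 limit were 18.6 and 23.9 CPM above it and 8.47 and 5.11 CPM below it. These levels chose the cells and are a description.

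**Figure D1:**
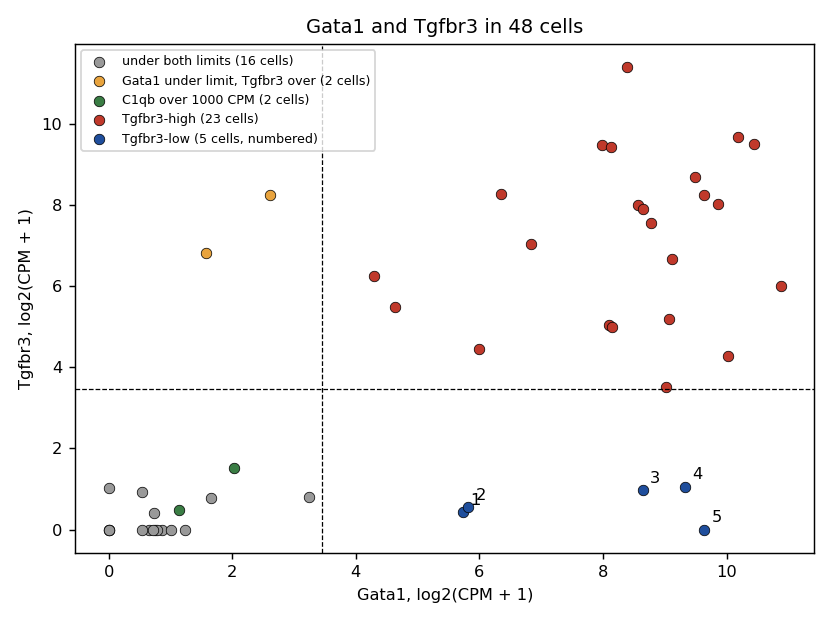
Gata1 (x axis) against Tgfbr3 (y axis) in each of the 48 cells, both as log2(CPM + 1), with dashed lines at the limits of 10 CPM; each point is 1 cell and colours mark the sets. The 23 Tgfbr3-high cells sit at 10.5 CPM or more of Tgfbr3, and the 5 Tgfbr3-low cells at 1.09 CPM or less at Gata1 levels inside the range of the high cells.

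Selecting for Gata1 did not give 5 low cells of a single kind. Mpo, the myeloperoxidase of granulocyte and monocyte precursors, was at 7664, 24.9, 273, 3.80 and 6223 CPM in Tgfbr3-low cells 1 to 5. Tgfbr3-high cells had 1.25 to 1213 CPM with a median of 54.5 CPM, so cells 1 and 5 lay above every Tgfbr3-high cell and the other three lay inside the range. Cd34, a surface marker that the beads removed, was at 1269 and 290 CPM in cells 1 and 5 and at 3.23, 0.969 and 0 CPM in cells 2, 3 and 4. Among Tgfbr3-high cells, also numbered by rising Gata1, it was highest at 562 and 260 CPM, in high cells 5 and 16. Cpa3, a protease of mast cells and their progenitors, divided the low cells likewise. It was at 369 and 2209 CPM in low cells 1 and 5 and at most 0.543 CPM in the other low cells. Its highest level among Tgfbr3-high cells was 428 CPM, in high cell 16, which also had the highest Mpo of that set. The other mast cell genes compared, Hdc and Lmo4, did not follow this division. Their means were 167 and 77.4 CPM in low cells 1 and 5, and 226 and 194 CPM in the other low cells. The summed level of 30 neutrophil and monocyte genes was 9933, 952, 1956, 602 and 10816 CPM in low cells 1 to 5 and 180 to 3937 CPM in Tgfbr3-high cells. Mpo is 1 of the 30 genes and made up 7664 and 6223 CPM of the sums of low cells 1 and 5. These sums are therefore not separate from Mpo.

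Erythroid genes marked the remaining low cells unevenly. Klf1, an erythroid transcription factor, was at 351 and 522 CPM in cells 2 and 4 and at 0, 0.969 and 1.04 CPM in cells 1, 3 and 5. Car2, the carbonic anhydrase that rises early in the erythroid lineage, was at 14.8, 953, 46.5, 1423 and 0.519 CPM. Tgfbr3-high cells had Klf1 at 0 to 499 CPM with a median of 58.2 CPM, and Car2 at 22.4 to 2674 CPM with a median of 1066 CPM. Gata2, a factor of earlier progenitors, was at 163, 1.38, 788, 50.5 and 1.04 CPM in the low cells and at a median of 201 CPM in the high cells. Kit, the stem cell factor receptor of the sort, was at 1274, 368, 690, 2.17 and 87.2 CPM in the low cells and at 1.54 to 2379 CPM in the high cells. A comparison of Tgfbr3-high with Tgfbr3-low cells is therefore not one at constant lineage: cells 2 and 4 carried Klf1 and Car2, cells 1 and 5 carried Mpo, and cell 3 carried Gata2 and Kit with Mpo inside the range of the high cells. Many lists are therefore also given without the cells with 1000 CPM of Mpo, which leaves 22 cells against 3. They are also given in cells with 10 CPM of Klf1 only, which leaves 15 against 2. A list not given in this way may shift too. The median log2 ratio of all genes, 0.17 with all 28 cells, was 0.30 and 0.37 in these subsets.

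**Figure D2:**
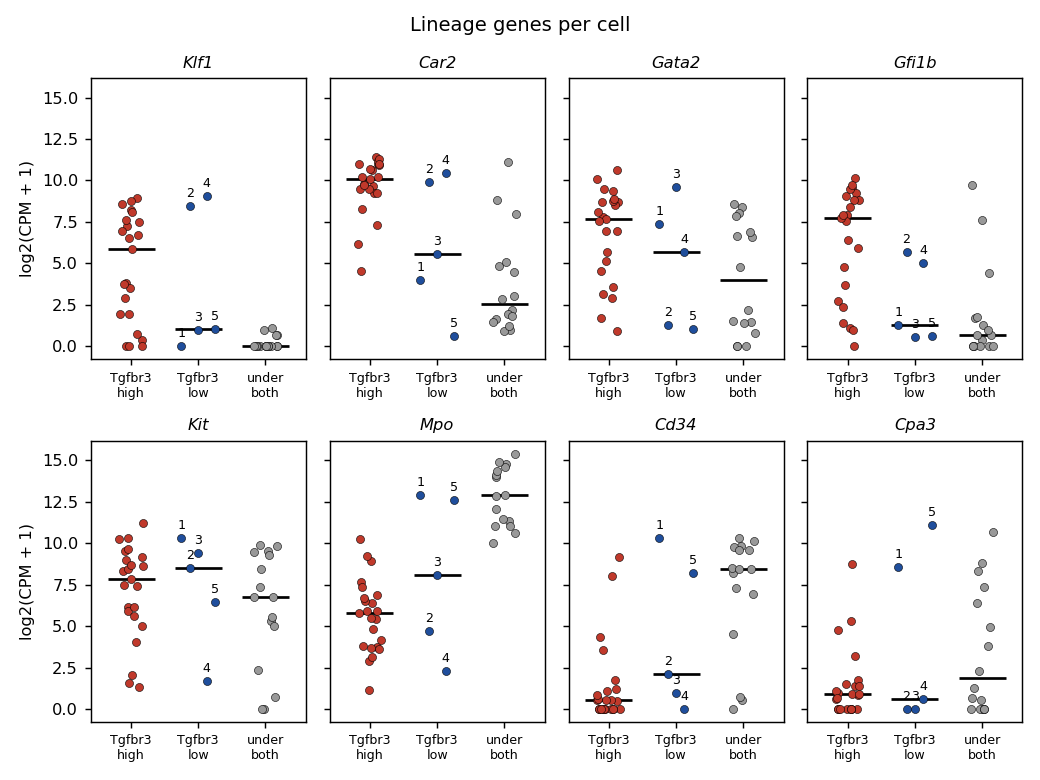
Levels of Klf1, Car2, Gata2, Gfi1b, Kit, Mpo, Cd34 and Cpa3 as log2(CPM + 1) (y axis) in each Tgfbr3-high cell, each Tgfbr3-low cell and the 16 cells under both the Gata1 and the Tgfbr3 limit (x axis); points are cells and lines are medians. Low cells 1 and 5 stand with the 16 cells for Mpo, whose median there was 7561 CPM, and cells 2 and 4 stand with the high cells for Klf1 and Car2.

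Across all genes, more were higher than lower in Tgfbr3-high cells. The comparison used 9707 genes with a read in at least 10 of the 48 cells. A gene was called when the ratio of the mean CPM of the sets, each plus 10 CPM, was at least 2 and remained so with every single cell left out in turn. This is a rule of size, not a test. It called 1380 genes higher (14.2% of those compared) and 161 lower (1.66%), 15.9% in either direction. With 23 cells on 1 side and 5 on the other, a gene read strongly in few cells is more easily met among the 23, and leaving out 1 of 5 cells moves a mean more than leaving out 1 of 23, so the split of the calls is not read as a direction. With all cells only, and none left out, 2405 genes (24.8%) were 2-fold higher and 1106 (11.4%) lower. By a difference of mean log2(CPM + 1) the calls were 1060 higher and 518 lower. Without the cells with 1000 CPM of Mpo, 1835 of the 9707 genes were called higher and 159 lower. In cells with 10 CPM of Klf1 only, 1957 were called higher and 197 lower. List counts in these subsets stand beside these numbers, not beside 14.2%. Ratios below are log2 of mean CPM plus 10 CPM, Tgfbr3-high over Tgfbr3-low, and understate the change of genes at low level.

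No gene other than Tgfbr3 itself was higher in every Tgfbr3-high cell than in every low cell (0.0103% of genes), and none was higher in every low cell than in every high cell (0%). A further 407 genes (4.19%) had no read in any low cell, against 2 genes (0.0206%) with none in any high cell. The low set has fewer cells, so a gene is more easily unread in all of them. A gene unread in every high cell also had to pass the filter on its reads in the other cells. These counts are therefore not read as a difference between the sets. The genes named next are the 15 called in each direction with the largest separation, that is, the largest share of pairs of 1 high and 1 low cell in which the level is ordered that way.

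Mef2c and F2r had the widest ratios among the 15 higher genes. Mef2c, on chromosome 13 at 83504034 to 83667080, plus strand, encodes a transcription factor of muscle, of lymphoid and myeloid progenitors and of megakaryocytes. It was at 6.33, 0.461, 10.7, 2.72 and 1.56 CPM in the low cells and at 2.21 CPM, a median of 220 CPM and 1233 CPM at most in the high cells. In all, 21 of 23 high cells were above every low cell. The ratio was 4.77, and 4.62 to 4.94 with any single cell left out.

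F2r encodes the thrombin receptor PAR1 and lies on chromosome 13 at 95601803 to 95618487, minus strand. Low cells had 2.81, 0.461, 1.45, 0.543 and 0 CPM of it, from 8, 1, 3, 1 and 0 reads, and high cells 0 to 1103 CPM with a median of 143 CPM. It reached 10 CPM in 20 of 23 high cells and in 0 of 5 low cells, with the same numbers after thinning. F2r is named for its separation of these same cells, which are not replicates, so the counts of cells are a description. The ratio was 4.56, and 4.65 without the cells with Mpo. In cells with Klf1 it was 4.60, and Mef2c was at 4.62 there, so both were as wide against low cells 2 and 4 alone.

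Slc25a11, the mitochondrial carrier that exchanges oxoglutarate for malate, was at 2.11, 1.38, 11.6, 9.24 and 0.519 CPM in the low cells and at a median of 163 CPM, up to 665 CPM, in the high cells. Capzb, the beta subunit of actin capping protein, was at 25.3, 6.0, 7.27, 41.3 and 3.63 CPM against 14.6 to 918 CPM with a median of 166 CPM. Their ratios were 3.78 and 3.19, and 20 and 18 of the 23 high cells were above every low cell. Both ranges overlapped at their edges.

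Fam192a, whose exons overlap Rspry1, was at 1.09 CPM or less in each low cell and at a median of 63.8 CPM in the high cells, with a ratio of 3.82. Kif20b, a mitotic kinesin, had a ratio of 3.56, with 3.16, 0, 55.7, 53.3 and 0 CPM in the low cells and a median of 243 CPM in the high cells. Crebbp, the acetyltransferase CBP, had 1 low cell at 0.485 CPM and the rest at 0, and a high median of 13.3 CPM up to 660 CPM. Treml2, a receptor of the TREM family, and Ptrf, a protein of caveolae, had no read in any low cell. They reached 683 and 427 CPM in high cells with medians of 9.98 and 4.61 CPM, and no fold is given for them. At the 50 and 100 CPM limits of Tgfbr3 the ratio of Ptrf was −1.40 and −1.80.

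The other higher genes of the 15 were Pde12, Ppil1, Prdm2, Zfp317, Rrp1 and Gm17066. Their ratios ran from 2.70 for Prdm2, a histone methyltransferase, to 2.98 for Gm17066. That of Prdm2 was −0.36 and −0.69 at the 50 and 100 CPM limits of Tgfbr3. Low cell 1 had Zfp317, a zinc finger gene, at 262 CPM, which is inside the high range of 4.37 to 1655 CPM. With single cells left out the ratio of Zfp317 ran from 2.68 to 5.19.

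Among lower genes, Nasp was the most evenly spread over the low cells. Nasp, a histone chaperone, lies on chromosome 4 at 116601052 to 116627941, minus strand. It was at 262, 370, 428, 366 and 278 CPM in low cells 1 to 5 and at 5.60 to 372 CPM with a median of 60.7 CPM in the high cells. The ratio was −1.51, and −1.66 to −1.42 with single cells left out. All 5 low cells lay in or above the upper part of the high range.

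Opa1, the GTPase that fuses mitochondrial inner membranes, was at 498, 353, 308, 34.8 and 37.9 CPM in the low cells and at a median of 5.52 CPM, up to 329 CPM, in the high cells. Rrp36, a ribosomal RNA processing factor, was at 27.1, 117, 164, 353 and 212 CPM against a median of 1.89 CPM and a highest value of 241 CPM. The ratios were −2.57 and −2.48. Both genes reached 10 CPM in 5 of 5 low cells, and in 8 and 5 of 23 high cells.

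Mul1, a mitochondrial ubiquitin ligase, was uneven, at 0.703, 278, 352, 298 and 4.67 CPM in the low cells and at a median of 0 CPM in the high cells. Mrpl43, a mitochondrial ribosomal protein gene, was even, at 103, 174, 146, 259 and 295 CPM against a high median of 42.8 CPM, with a ratio of −1.52. Of the remaining lower genes, Ncln (−2.18), Tspan13 (−1.87), Zfyve27 (−2.57), Ubfd1 (−2.56), Dlat (−2.51), Pycr1 (−2.17), Cherp (−1.91), Pik3c2b (−1.68), G530011O06Rik (−1.70) and Arl14ep (−1.38) are given by their ratio. Dlat is a subunit of pyruvate dehydrogenase and Pycr1 an enzyme of proline synthesis.

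**Figure D3:**
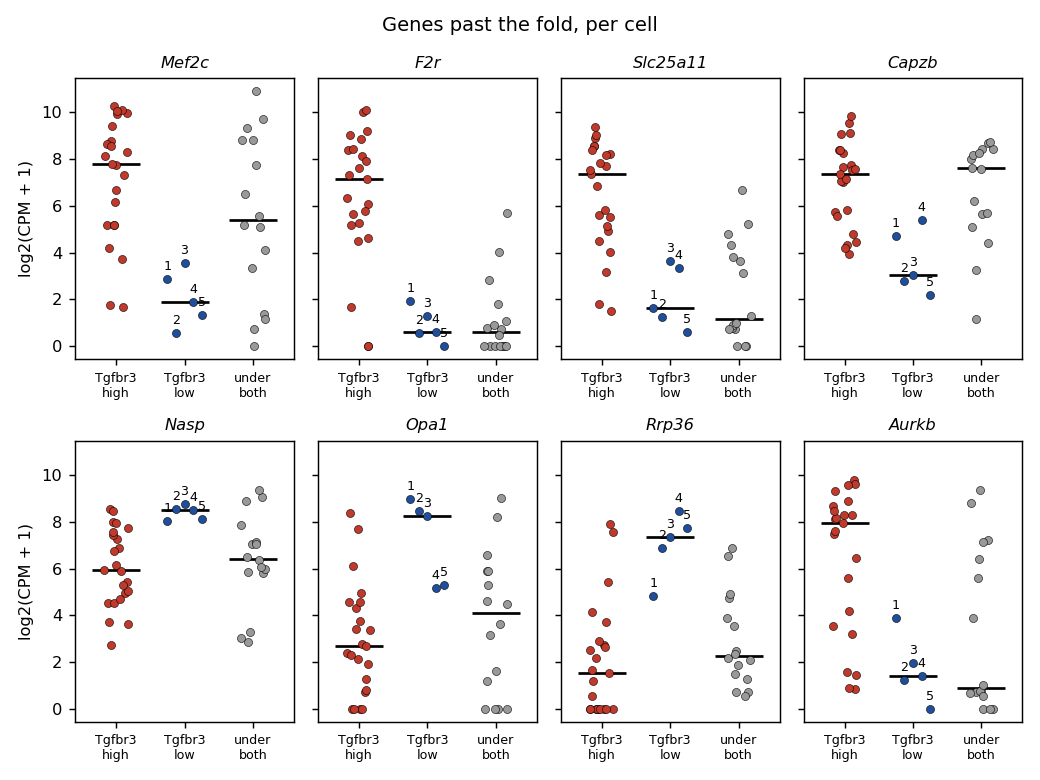
Levels of 8 genes as log2(CPM + 1) (y axis) in the Tgfbr3-high and Tgfbr3-low cells and in the 16 cells under both limits (x axis); each point is a cell and each line a median. Mef2c, F2r, Slc25a11, Capzb and Aurkb are higher in most high cells than in the 5 low cells, and Nasp, Opa1 and Rrp36 are lower in most, with ranges that overlap.

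The limit for Tgfbr3 bears on these values. Divided at 50 CPM, 16 cells against 12, 431 genes were higher and 319 lower, and the ratios of Mef2c and F2r were 0.78 and 0.80, under the fold. Divided at 100 CPM, 13 against 15, 328 were higher and 470 lower, with 1.09 and 0.91 for these genes, no longer called.

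Within the Tgfbr3-high cells the levels overlapped widely. Mef2c had a median of 131 CPM in the 10 cells at 10 to 100 CPM of Tgfbr3 and of 313 CPM in the 13 cells above, with ranges of 2.21 to 996 and 12.3 to 1233 CPM. F2r had medians of 73.6 and 160 CPM and Slc25a11 of 119 and 163 CPM. Nasp had 135 and 57.9 CPM. Klf1 had 80.5 and 12.3 CPM, Car2 1112 and 890 CPM, and Tfrc, the transferrin receptor CD71, 271 and 12.3 CPM. Whether these medians differ was not tested.

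The partners of Tgfbr3 in TGF-beta signalling were read in few cells of either set. Of 27 ligand and latency genes, 6 could be compared, none was called, and their median ratio was 0.37. Tgfb1 was read in 6 high cells, at 22.2 CPM at most, and in 0 low cells. Of 17 receptors and receptor adaptors, 7 could be compared and none was called, with a median of 0.02. Tgfbr2 was read in 1 high cell, at 9.98 CPM, and in 1 low cell, at 1.45 CPM. Tgfbr1 reached 10 CPM in 2 high cells and 2 low cells, at 1.05, 0, 17, 1.63 and 11.4 CPM in low cells 1 to 5 and at 23.2 CPM at most in the high cells. Eng, endoglin, the other co-receptor of the family, was read in 10 high cells up to 156 CPM and reached 30.5 CPM in low cell 3.

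Among 12 compared Smad and Smad repressor genes, 2 were called higher, the repressors Ski and Tgif2, and none lower. The share called higher, 16.7%, is close to the 14.2% of all genes. The list's median was 0.05, and 1.12 without the cells with Mpo and 1.14 in cells with Klf1. In these subsets 2 and 3 of the 12 genes were called higher, beside 1835 and 1957 of all 9707 genes. Ski was read in 11 high cells up to 349 CPM, and in the low cells only at 0.543 CPM in cell 4. Tgif2 reached 302 CPM in high cells and 8.70 CPM in low cell 4. The medians of both were 0 CPM in the high cells, so the calls rest on the 4 and 5 high cells that reached 10 CPM. Neither Ski nor Tgif2 was called without the cells with Mpo, at 1.56 and 1.57, so the genes called there were other members. Ski was at −0.33 at the 100 CPM limit of Tgfbr3.

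Smad2, a Smad phosphorylated by the TGF-beta receptors, was at 355, 377, 13.1, 54.9 and 49.3 CPM in the low cells and at a median of 2.99 CPM, up to 540 CPM, in the high cells. It reached 10 CPM in 5 of 5 low and 10 of 23 high cells. The ratio of −1.29 was not called, since it ran from −1.80 to −0.80 with single cells left out. Smad4, the common partner Smad, had a ratio of 1.09 and was not called either.

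Of 6 compared TGF-beta target genes, Klf10 alone was called (16.7%, beside 14.2% of all genes). Its ratio was 1.58, and the list's median was 0.36. Klf10, an early TGF-beta response gene, was at 51.3, 9.23, 0, 4.89 and 64.3 CPM in the low cells and at a median of 1.06 CPM, up to 838 CPM, in the high cells. The call was lost with TMM library sizes and with the authors' normalized values, and the difference of mean log2(CPM + 1) was −0.61. Smad7, the inhibitory Smad, was read in 1 high cell, at 144 CPM.

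Of 22 erythroid regulators compared, 3 were called higher and 1 lower, with a median of 0.16. The share called higher, 13.6%, is close to the 14.2% of all genes. In cells with Klf1 it was 5 of 22, beside 1957 of all 9707 genes. Gfi1b, a repressor needed for red cells and platelets, was at 1.41, 51.2, 0.485, 32.1 and 0.519 CPM in the low cells and at a median of 208 CPM, up to 1122 CPM, in the high cells. Its ratio was 3.50, and 15 of 23 high cells were above every low cell. Epor, the erythropoietin receptor, was called at 2.72, with 9.69 CPM at most in low cells, and reached 10 CPM in 10 high cells, up to 401 CPM. E2f2, a cell cycle regulator of erythroblasts, was called at 1.78.

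Ikzf1, the lymphoid and erythroid factor Ikaros, was called lower, at −1.77. It was at 228, 1199, 233, 1094 and 0 CPM in the low cells and at a median of 77.4 CPM in the high cells, and low cells 2 and 4, which carried Klf1, were above every high cell. Tal1 had a ratio of 0.46, Zfpm1, the Gata1 cofactor FOG1, −0.03, Gata2 0.65 and Klf1 −0.48, and none was called. These ratios depended on the low cells used: in cells with Klf1, Gata2 was at 3.37 and called, and Zfpm1 and Klf1 were at −1.51 and −1.18.

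Of 24 genes of heme synthesis and iron, 7 were higher (29.2%, beside 14.2% of all genes) and 0 lower, with a median of 0.94. They were Alad and Uros, enzymes of heme synthesis, Tfrc (2.80), the mitochondrial carriers Slc25a37 (3.21) and Slc25a38 (3.04), the exporter Abcg2 (3.02) and the iron reductase Steap3 (3.15). Tfrc was at 3.52, 47.1, 47.5, 89.7 and 0 CPM in the low cells and at a median of 151 CPM, up to 1543 CPM, in the high cells. Its direction turned at other limits of Tgfbr3, with −0.68 at 50 CPM and −0.45 at 100 CPM, and Abcg2 was at −0.46 at 100 CPM. Slc25a37, which carries iron into mitochondria, had a high median of only 1.83 CPM and reached 10 CPM in 9 high cells. In low cells it was at 5.33 CPM at most.

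Of 23 red cell membrane, enzyme and surface genes, 5 were higher (21.7%, beside 14.2% of all genes) and 0 lower, with a median of 1.30. Car1, the carbonic anhydrase of maturing red cells, had a ratio of 2.99, with 0.352, 189, 0.485, 98.4 and 1.04 CPM in the low cells. The high cells had a median of 26.2 CPM and reached 4044 CPM, so low cells 2 and 4 lay above the high median and the ratio rests on few high cells. Ermap, Icam4 and Slc14a1, each a blood group gene, had ratios of 2.13, 1.77 and 2.29, and Epb4.1, protein 4.1 of the membrane skeleton, was the fifth. Ermap and Slc14a1 were high in low cell 2, at 364 and 207 CPM, beside high medians of 272 and 65.4 CPM. In cells with Klf1 neither was called, at 1.47 and 0.49, and Ermap was not called without the cells with Mpo either, at 1.48.

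Car2, at 1.30, was not called, since its ratio was 0.98 with 1 of the cells left out. The 9 globin genes were listed at 0 in all cells. In cells with Klf1 only, the medians of the 2 lists were 0.34 and 0.49, with 6 heme and iron and 3 red cell genes higher. Without the cells with Mpo they were 0.54 and 1.07, with 7 and 5 higher. Among all 9707 genes, 1957 were higher in cells with Klf1 and 1835 without the cells with Mpo. At the 50 CPM limit of Tgfbr3 the medians were 0.29 and 0.22.

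Genes of the platelet lineage were included because Gata1, Gfi1b and Mef2c also act there, and CD41 was among the markers removed. Of 14 compared, 6 were higher (42.9%, beside 14.2% of all genes) and 0 lower, among them F2r, Gp9 (2.62), Plek, Rab27b and Vwf. Mef2c and Gfi1b are themselves called in this comparison, and F2r was named above by its separation of the same cells. The share of this list is therefore a description and not separate support. With TMM library sizes 4 were. The list's median was 0.91, or 1.30 with genes unread in the low cells set at their lower bound. Without the cells with Mpo 8 were higher and the median was 1.87, and in cells with Klf1 7 were higher and the median was 1.78. Among all 9707 genes, 1835 and 1957 were higher in these subsets. Vwf, von Willebrand factor, was read in 10 high cells up to 403 CPM and in no low cell. Gp9, a subunit of its platelet receptor, reached 10 CPM in 8 high cells. Itga2b, which encodes CD41, had a ratio of 0.95 and was not called. The summed level of the list was 2759, 5.54, 1075, 190 and 1201 CPM in low cells 1 to 5 and 4.78 to 7226 CPM, with a median of 1228 CPM, in the high cells, so the sums overlapped. Of the defining platelet genes, Ppbp and Gp6 had no read in any cell, and Pf4 was read in 4 high cells, up to 138 CPM, and in no low cell. At 50 CPM of Tgfbr3 none of the list was called.

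Of 56 cell cycle genes of G2 and mitosis compared, 21 were higher (37.5%, beside 14.2% of all genes) and 0 lower, with a median of 0.88. Without the cells with Mpo 17 were higher, and in cells with Klf1 19 higher and 1 lower. Among all 9707 genes, 1835 and 1957 were higher in these subsets. Aurkb, the kinase of the chromosomal passenger complex, was at 13.7, 1.38, 2.91, 1.63 and 0 CPM in the low cells and at a median of 249 CPM, up to 883 CPM, in the high cells, with a ratio of 4.35. Bub1, a spindle checkpoint kinase, had a ratio of 3.50, and Cdk1, Ube2c, Cenpf, Cenpa, Cenpe and Ttk were also called. The summed level of the list did not follow these genes: it was 15415, 14534, 7632, 12530 and 12625 CPM in low cells 1 to 5, inside the 6229 to 26728 CPM of the high cells, whose median was 14215 CPM.

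Of 45 S phase genes, 8 were higher (17.8%, beside 14.2% of all genes) and 1, Nasp, was lower, with a median of 0.29. The median was −0.11 without the cells with Mpo, with 8 higher and 2 lower, and −0.08 in cells with Klf1, with 11 higher and 4 lower. Among all 9707 genes, 1835 and 1957 were higher in these subsets. E2f8, a repressor of the cycle, had a ratio of 3.34, but of −0.70 and −0.57 at the 50 and 100 CPM limits of Tgfbr3. The summed S phase level was 6967, 9825, 12573, 12185 and 5649 CPM in the low cells and 5610 to 16222 CPM, with a median of 7606 CPM, in the high cells. Of 5 compared cyclin-dependent kinase inhibitors, Cdkn2d alone was higher (20%, beside 14.2% of all genes). At 50 CPM of Tgfbr3, 5 of the 56 G2 and mitosis genes were higher and the median was −0.04.

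**Figure D4:**
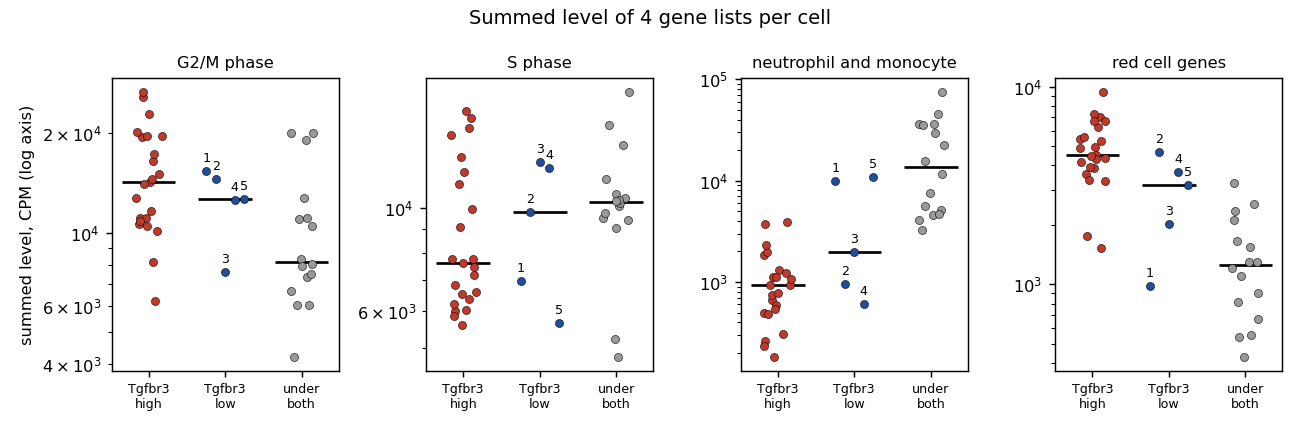
Summed CPM (y axis, log scale) of the G2/M, S phase, neutrophil and monocyte, and red cell lists in each cell of the Tgfbr3-high and Tgfbr3-low sets and of the 16 cells under both limits (x axis); points are cells and lines medians. The G2/M sums of the low cells, 7632 to 15415 CPM, lie inside those of the high cells, and 2 low cells have neutrophil and monocyte sums of 9933 and 10816 CPM, above every high cell. Mpo is in that list and makes up 7664 and 6223 CPM of these 2 sums.

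Of 22 stem and early progenitor genes, Mycn and Lin28b were higher and Plac8 lower, with a median of −0.12. Without the cells with Mpo, 9 were higher, 0 lower and the median was 1.34, and in cells with Klf1 6 were higher and the median was 0.75. Among all 9707 genes, 1835 and 1957 were higher in these subsets. None of 10 glucocorticoid response and self-renewal genes was called, among them Zfp36l2 (−0.75), which BFU-E need for self-renewal, and the glucocorticoid receptor Nr3c1 (−0.08). The ratio of Nr3c1 reached 2.05 without low cell 2, which had 690 CPM. Of 19 cytokine receptors, Epor and Il1rl1 were higher (10.5%, beside 14.2% of all genes). Both without the cells with Mpo and in cells with Klf1, 5 were higher, beside 1835 and 1957 of all 9707 genes. Of 21 glycolysis genes, 4 were higher (19%, beside 14.2% of all genes), the glucose transporters Slc2a1 (2.37) and Slc2a3 (3.12) with Pfkm and Bpgm. The list's median was −0.01, or −0.37 without the cells with Mpo and −0.44 in cells with Klf1. Slc2a3 was at −0.31 at the 100 CPM limit of Tgfbr3. Of 19 immediate early and stress genes, Egr1 and Klf6 were higher (10.5%, beside 14.2% of all genes).

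Markers of other cells that the sort could hold moved as follows. Of 24 neutrophil and monocyte genes compared, Mpo (−4.17) was lower (4.17%, beside 1.66% of all genes). None was higher, and the median was −0.20. Prtn3, proteinase 3, was at 65.4 and 233 CPM in low cells 1 and 5 and at 8.15 CPM at most in the others. It reached 160 CPM in high cell 11, so low cell 1 lay inside the range of the high cells. Not all members followed Prtn3. Elane was at 3.52 and 3.63 CPM in low cells 1 and 5, and Cebpa at 0 CPM in both. Ctsg was at 347 CPM in low cell 1 and at 1.04 CPM in low cell 5. Of 3 mast cell and basophil genes Cpa3 was lower, at −4.02. Cebpe, Ngp, Ltf and Cd177, genes of maturing neutrophils, had no read in any kept cell. Camp and S100a9, of the same list, were read in 2 and 4 high cells and in 0 low cells. Their highest levels were 0.794 and 1.59 CPM. In cells with Klf1 only, the ratios of Mpo and Cpa3 were 2.88 and 2.10. The neutrophil and monocyte list then had 4 genes higher, 0 lower and a median of 0.25, and 1 of the 3 mast cell and basophil genes was higher. Of 16 macrophage genes Cd68 was higher (6.25%, beside 14.2% of all genes) and the median was 0.54. Without the 1 cell with C1qb at 402 CPM, whose macrophage genes summed to 3720 CPM, none was called and the median was 0.00032. With all 28 cells, none of 2 lymphoid, 6 hepatoblast and 3 endothelial or stromal genes was called. In cells with Klf1, 1 lymphoid and 1 hepatoblast gene were higher, and 1 lymphoid gene was higher without the cells with Mpo. Of 10 genes of the sort, Tfrc alone was called (10% higher, beside 14.2% of all genes) and the median was −0.13. In cells with Klf1, 3 were higher, beside 1957 of all 9707 genes, and the median was 0.83. Cd34 (−2.77), Fcgr3 (−1.86), which encodes CD16, and Ptprc (−1.25), the gene of CD45 and B220, were not called. Of 5 sex-linked genes, Eif2s3y (3.08) and Uty (3.41) were higher, beside the uneven sex of the cells given above.

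**Figure D5:**
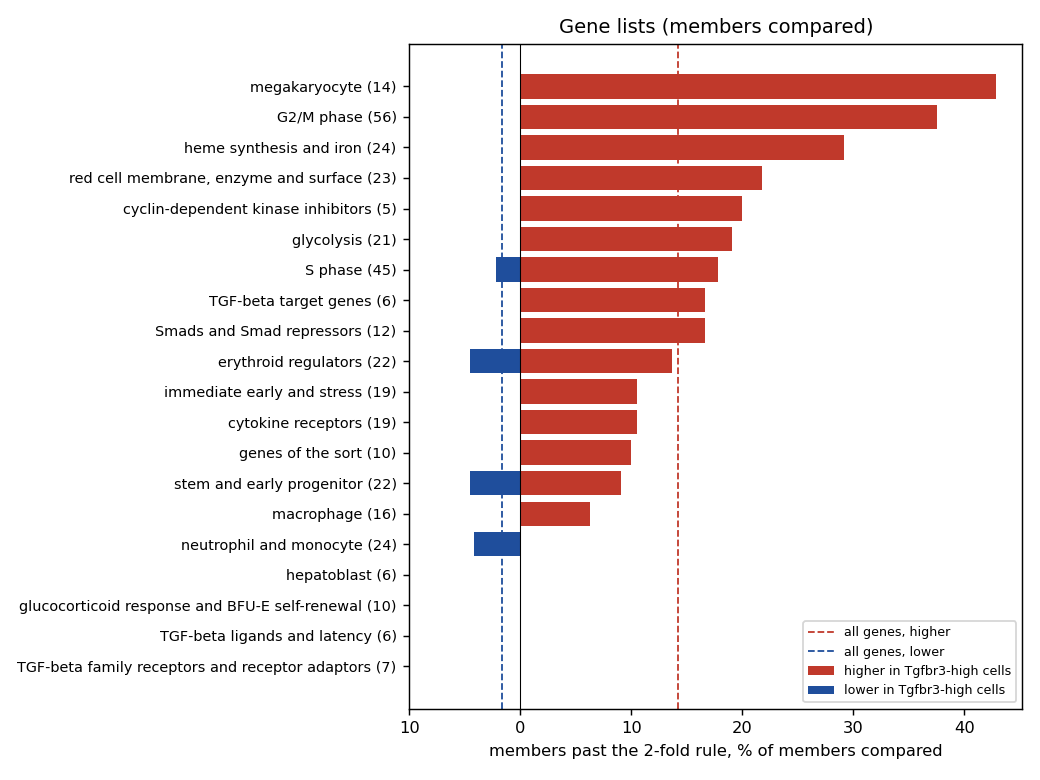
Share of each list's compared genes called higher or lower in Tgfbr3-high cells (percent), for lists with at least 5 compared genes other than the sex-linked one; the dashed lines mark 14.2% and 1.66%, the shares of all 9707 genes. The megakaryocyte list, with 6 of 14 genes, and the G2/M list, with 21 of 56, have the largest shares called higher among the lists drawn. The lists were chosen with earlier results of these data known.

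The 18 cells under the Gata1 limit were described by the same division. In 2 of them Tgfbr3 reached 10 CPM and in 16 it did not. At a 2-fold ratio with all cells, 1371 genes were higher (14.1%) and 3971 lower (40.9%) in those 2 cells. Of 1379 genes called higher in the Gata1 cells, Tgfbr3 left out, 242 (17.5%) were also higher there and 653 (47.4%) lower. Of the 161 called lower, 92 (57.1%) were also lower there and 11 (6.83%) higher. F2r was at 257 and 98.5 CPM in the 2 cells, above all 16 others, which had a median of 0.533 CPM and reached 51.7 CPM. Of all genes 1.11% were above the others in this way, and of the 1379 genes called higher 15 (1.09%) were. Mef2c was at 1315 and 80.8 CPM, beside a median of 41 CPM and a highest value of 1918 CPM in the 16. Capzb was at 7.95 and 7.88 CPM in the 2 cells, below the median of 194 CPM in the 16. Slc25a11 was at 17 and 0 CPM beside a median of 1.22 CPM, and Nasp at 47.7 and 266 CPM beside 85.3 CPM.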

How the data were processed

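Single cells were captured on a Fluidigm C1 chip, cDNA was made with SMART-Seq chemistry and libraries with Nextera XT, per the labels' protocols. The submitters' processing notes name TopHat2 2.0.12, featureCounts 1.4.6 of Subread and the build mm10. The authors deposited raw counts of 24062 genes, 9946 of them without a read, and a table of log2 normalized values. The deposited log2 values equal log2 of the count over a median-of-ratios size factor, plus 1, within 1e-06. Columns carry run codes, which could not be tied to sample titles.

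CPM, sets, ratios and counts were computed from the deposited counts with Python 3.11.15, numpy 2.4.6, scipy 1.17.1 and pandas 2.3.3. TMM factors came from edgeR 4.0.16 in R 4.3.3, which made no test. Figures used matplotlib 3.10.9. Positions are from GENCODE for GRCm38. The steps were tested on simulated data. Filters, limits and the pseudocount of 10 CPM are given with the results. No doublet caller was run. Chambers were inspected for a cell, per the labels.

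The members and gene lists were chosen with earlier results of these data known. Named genes are those of the rule, the 15 called genes of largest separation in each direction, called list members, defining members that were not called, and genes of the sort. A called list member is not reported here. Cripto, Trfr2, Epb4.9, Ly6g, Ly76, Mlf1ip and Ighm were not matched in the table and were not used. Alternatives changed the normalization, filter, pseudocount, fold, measure, limits, depth or cells.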

Additional observations from a re-analysis of the deposited data

Results flagged for a closer look

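Tgfbr3 also appeared in cells that the comparison does not use. Of the 18 cells under the Gata1 limit, 2 had Tgfbr3 at 10 CPM or more, at 304 and 112 CPM, beside Gata1 at 5.11 and 1.97 CPM.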

How the results depend on the processing

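No paired analysis was possible because all cells belong to 1 labelled group. The 1380 higher and 161 lower genes became 2375 and 248 with a pseudocount of 1 CPM, 307 and 55 with 50 CPM, 336 and 23 at a 4-fold ratio, 2405 and 1106 without leaving cells out, and 68 and 51 by a 50-point difference of shares of cells at 10 CPM. By mean log2(CPM + 1) 518 were lower. Divided at 50 CPM of Tgfbr3 they were 431 and 319, and at 100 CPM 328 and 470. Leaving out single cells gave 1322 to 1662 higher and 138 to 181 lower. The other alternatives stayed within 1.5 times. Of the 30 genes with the largest separation, 2, Crebbp and Fam192a, kept their call in all 23 alternatives other than leaving out single cells. Signs turned at 50 CPM of Tgfbr3 for Ptrf (−1.40), Prdm2 (−0.36), Klf10 (−0.075), Tfrc (−0.68), Slc14a1 (−0.0021), E2f8 (−0.70) and Plac8 (0.0028), and at 100 CPM for Ptrf (−1.80), Prdm2 (−0.69), G530011O06Rik (0.089), Ski (−0.33), Tfrc (−0.45), Abcg2 (−0.46), E2f8 (−0.57) and Slc2a3 (−0.31). Klf10 was at −0.61 by mean log2(CPM + 1) and at −5.22 points by shares, and Mpo at 6.96 points. Nr3c1 was at 1.67 with Gata1 at 100 CPM and at −0.56 to 2.05 with single cells left out, the highest without low cell 2, and Cpa3 at 0.45 without the cells with Mpo. In cells with Klf1 only, Mpo (2.88), Cpa3 (2.10), Plac8 (2.67), Fcgr3 (2.34) and Ptprc (3.29) turned. The Klf1 and C1qb alternatives and leaving out single cells were added after seeing the data. The cause of these shifts was not tested. The 5 low cells limit the precision of every ratio.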
